A study of Mus musculus with 8 samples.

Results

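Armcx1, Armcx2 and Armcx3 are 3 X-linked mouse genes of the armadillo repeat containing, X-linked (ARMCX) family. They were chosen because earlier results of these arrays listed them among genes low in germ cells before and after 3 days of culture and high by day 6, so the differences of these 3 genes between groups are given as a description, with no test. Every probe whose symbol, current or older, was one of these names was taken, which gave 1 probe for each, 3 of the 16346 genes with a named probe. Expression was measured on 8 one-colour TORAY oligonucleotide arrays of mouse cells carrying a Nanog-GFP reporter, in 4 groups of 2 arrays. E11.5 PGC stands for primordial germ cells taken from the embryo, Day3 and Day6 for cells at 3 and 6 days, and EG for embryonic germ cells, the pluripotent cells that primordial germ cells form in culture. Every sample other than E11.5 PGC has 2i+A83 in its name, a set of 3 kinase inhibitors: PD325901 at 1 µM, which acts on MEK, CHIR99021 at 3 µM, which acts on GSK3, and A83-01 at 250 nM, which blocks the receptors of Activin and Nodal. All samples, E11.5 PGC included, share the same medium text (Knockout DMEM, LIF, bFGF, 15% serum replacement and the 3 inhibitors at these concentrations). They also share the same cell type label, primordial germ cell. Sex, strain, feeder cells and the number of embryos or lines behind a sample were not stated, nor was it said that the 2 arrays of a group came from separate cultures, so the tests measure the spread between these arrays, which may be technical. The first Day6 array exceeded the second in summed fibroblast and mesenchyme markers (3564 against 788 in intensity), mostly through S100a4 and Thy1. Values of both arrays are therefore given.

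ARMCX proteins carry armadillo-like repeats near the C terminus. Their genes form a cluster on the X chromosome of placental mammals, thought to descend from a copy of the autosomal gene Armc10. Armcx3 and Armcx1 proteins sit at the outer membrane of mitochondria and take part in mitochondrial movement in neurons, where Armcx3 binds the Miro and Trak proteins that link mitochondria to motors. Armcx2 is also reported at mitochondria and is less well described.

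Armcx1 had a scaled intensity of 3.03 and 4.29 on the 2 E11.5 PGC arrays, 5.12 and 15.2 on the Day3 arrays, 157 and 162 on the Day6 arrays, and 152 and 156 on the EG arrays. Intensity is the deposited linear signal, whose median on each array lies near 20. Both Day6 arrays and both EG arrays stood above all 4 earlier arrays, and the lowest of them was 9.99 times the highest earlier one. The earlier arrays were near the limit of measurement, since 1 of the E11.5 PGC arrays lay under the floor (intensity 4.24, the 25th percentile of probe means) and the other just above it. On the log2 scale Armcx1 was 4.18 higher in Day6 than in Day3 (18.1-fold) and 5.47 higher than in E11.5 PGC (44.3-fold). Set against the floor in place of the dim early values, the Day6 mean was 37.7 times the floor and the EG mean 36.3 times.

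Armcx2 had an intensity of 6.03 and 9.25 in E11.5 PGC, 3.89 and 7.19 in Day3, 82.6 and 65.1 in Day6, and 140 and 102 in EG. The 4 later arrays again stood above the 4 earlier ones, with the lowest later array 7.04 times the highest earlier one. Armcx2 was 3.79 higher on the log2 scale in Day6 than in Day3 (13.9-fold) and 3.30 higher than in E11.5 PGC (9.82-fold). Its E11.5 PGC arrays overlapped its Day3 arrays, whereas its EG arrays both lay above its Day6 arrays.

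Armcx3 did not share this pattern. It read 2.18 and 4.05 in E11.5 PGC, 1.47 on the only Day3 array with a value, 14.0 and 3.04 in Day6, and 6.41 and 6.95 in EG. The second Day6 array lay under the floor and below 1 of the E11.5 PGC arrays, so the groups overlapped. The mean difference between Day6 and E11.5 PGC was 1.14 on the log2 scale (2.20-fold), made of 2.68 between the first arrays of the groups and -0.41 between the second. These values go against the description "switched on by day 6" for Armcx3, which was dim throughout.

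**Figure D1:**
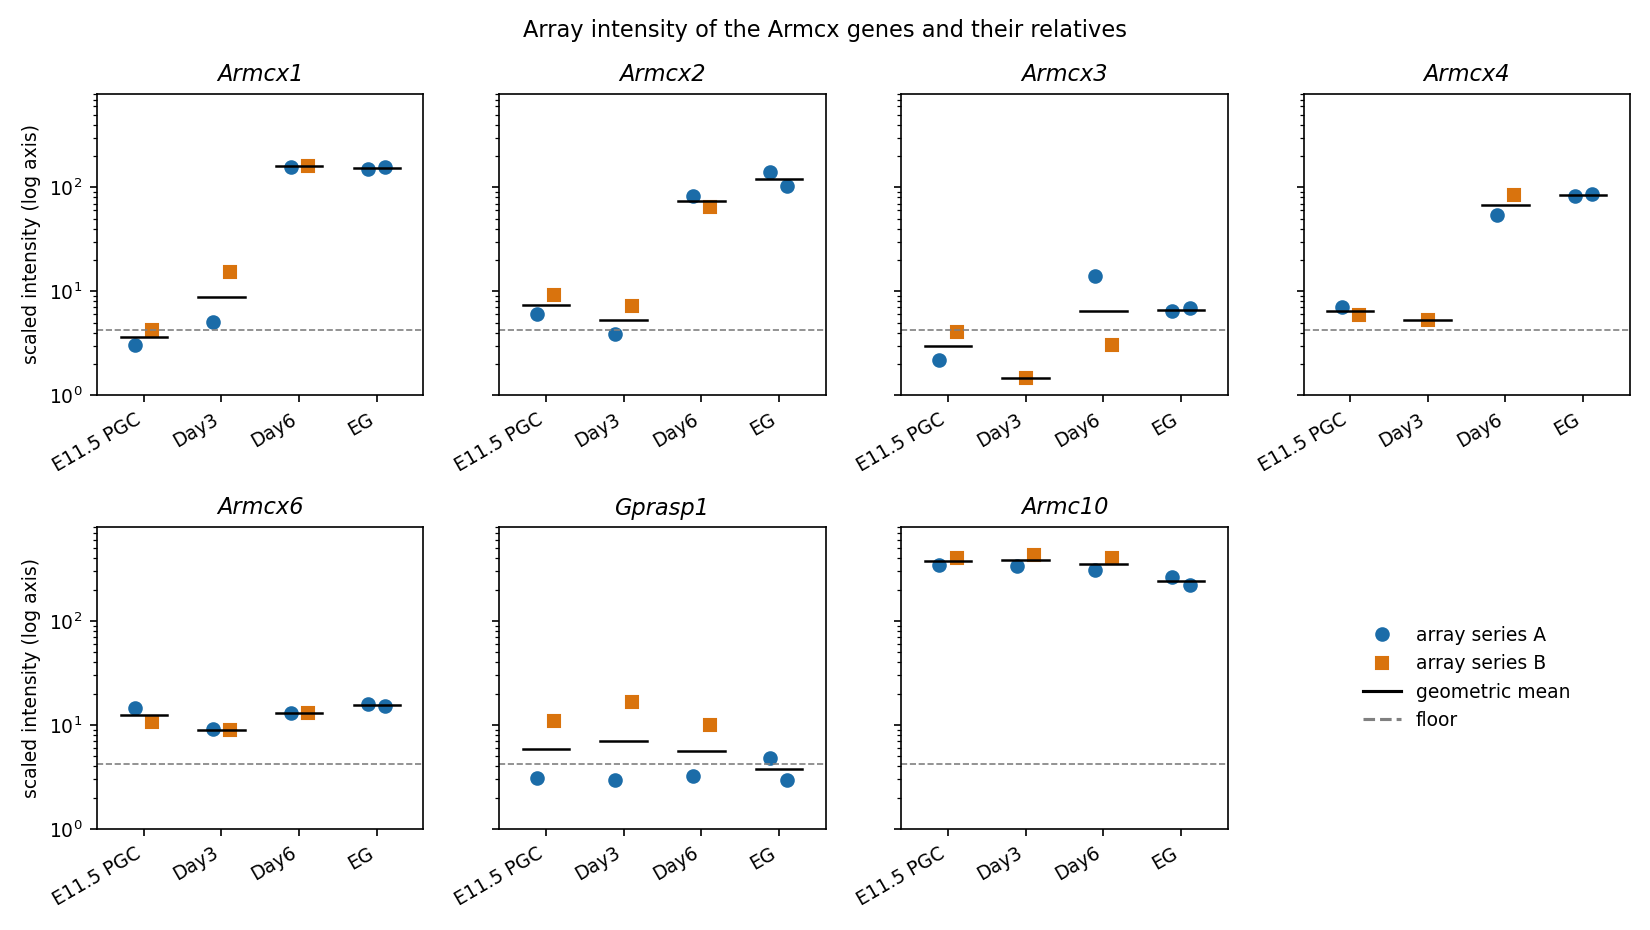
Scaled intensity (log axis) of the 3 Armcx genes and their measured relatives on each of the 8 arrays, by group. Circles are arrays of series A, squares arrays of series B, black bars the geometric mean of the group and the dashed line the floor of 4.24; Armcx1, Armcx2 and Armcx4 step up between Day3 and Day6, while Armcx3 overlaps between groups and Armcx6, Gprasp1 and Armc10 show no such step.

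By their names the arrays belonged to either of 2 series. Series A held both arrays of EG and the first array of each other group, and series B held the second arrays. Within series A, Armcx1 differed by 4.94 on the log2 scale between Day6 and Day3, and within series B by 3.42. The corresponding differences of Armcx2 were 4.41 and 3.18. Both genes were therefore far higher in Day6 within each series, and the smaller differences in series B went with higher Day3 values there. For Armcx3 only series B allowed this difference, 1.05, because its Day3 value in series A was missing.

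The separation of Armcx1 was rarely matched on these arrays. Of the 19524 probes with a value on all 8 arrays, 879 (4.5%) had all 4 Day6 and EG arrays above all 4 E11.5 PGC and Day3 arrays. In 89 of them the lowest later array was at least 2 times the highest earlier array, and in 7 at least 5 times. Armcx1 had the widest separation by this measure and Armcx2 the fourth widest. The others past 5 times were Myo1f (7.85), a class I myosin of leukocytes, Pdcl2 (7.12), a phosducin-like protein of germ cells, Laptm5 (6.96), a lysosomal membrane protein of blood cells, Gfpt2 (6.49), an enzyme of hexosamine synthesis, and Igfbp2 (5.45), a binding protein of insulin-like growth factors. Since the members were chosen on these same arrays, their place in this order is a description.

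The upstream sequences of the 2 members that stepped up are shown because the genes rose over the same interval and lie close together. The RefSeq promoter table (build GRCm38.p6) held an entry for Armcx1 and Armcx2 and none for Armcx3. The sequences give the 250 bases before the start of the promoter entry, 5′ to 3′ on the strand of the gene. They lie at chrX:134717688-134717937 (plus strand) for Armcx1 and chrX:134809222-134809471 (minus strand) for Armcx2. The RefSeq gene table begins Armcx1 earlier, at chrX:134717913, so the last bases of its window lie inside the gene as listed there. The window of Armcx2 lies just outside its gene. Capitals mark matches to the motifs named after them.
Armcx1: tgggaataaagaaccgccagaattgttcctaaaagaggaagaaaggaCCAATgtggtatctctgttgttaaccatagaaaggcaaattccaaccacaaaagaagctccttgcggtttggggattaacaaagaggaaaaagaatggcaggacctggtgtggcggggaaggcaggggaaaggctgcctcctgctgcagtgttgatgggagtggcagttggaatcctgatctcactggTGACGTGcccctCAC
Armcx2: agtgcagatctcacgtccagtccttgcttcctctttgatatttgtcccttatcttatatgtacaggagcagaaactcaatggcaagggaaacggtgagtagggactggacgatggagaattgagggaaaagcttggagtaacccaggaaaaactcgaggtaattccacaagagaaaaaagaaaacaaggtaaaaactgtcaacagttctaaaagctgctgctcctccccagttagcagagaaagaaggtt

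Both windows held 4 CG dinucleotides, and their GC content was 49.6% for Armcx1 and 43.6% for Armcx2. Motifs were searched on both strands in 300 bases, the 250 shown and the 50 that follow, and were chosen after the sequences had been seen. The E-box was spelled CACGTG, the cyclic AMP response element in full TGACGTCA and in its shorter form TGACGTG. The others were the GC box (GGGCGG), the box of TATA-binding protein (TATAAA) and the binding motif of NF-Y (CCAAT). Armcx1 held the NF-Y motif, the shorter response element and the E-box, the last lying across the start, so that only its first 3 letters close the sequence above. Armcx2 held none of the 6. Of the 32851 RefSeq promoter windows of the same length, 7.15% held the E-box, 2.01% the shorter and 1.79% the full response element, 37.4% the NF-Y motif, 35.7% the GC box and 13.6% the box of TATA-binding protein. The 3 motifs held by Armcx1 do not overlap.

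The E-box recurred in the family. The windows below, each 30 bases with CACGTG in capitals, come from the 3 of 8 family promoters in the table that held it. They lie at chrX:134717923-134717952 (plus strand) for Armcx1, chrX:134686504-134686533 (plus strand) for Armcx4 and chrX:134751428-134751457 (minus strand) for Armcx6.
Armcx1: tgacgtgcccctCACGTGagccgaagccta
Armcx4: acgcggagccccCACGTGacccggagctgc
Armcx6: tgacgtggctgtCACGTGaccaagagccgc
In Armcx1 and Armcx4 the motif spans bases -3 to 3 around the start of the promoter entry. In Armcx6 it spans bases -26 to -21. These starts differ from those of the RefSeq gene table. There Armcx1 begins at chrX:134717913, Armcx4 begins at chrX:134685650 and Armcx6 spans chrX:134748455-134756666. All 3 windows therefore lie inside the genes as listed in that table. Armcx6, which holds the motif, lay between 8.90 and 15.7 on all arrays, and Armcx2, which does not, stepped up. Whether the motif has a part in the expression of these genes was not tested. A match is a string of letters and shows no binding.

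EG cells were compared with E11.5 PGC to see whether the day 6 level was also found in established cells. Armcx1 was 5.42 ± 0.50 (SE) higher on the log2 scale in EG than in E11.5 PGC (42.7-fold, n = 2 arrays a group), from an E11.5 PGC mean under the floor, and its EG mean was 36.3 times the floor. Armcx2 was 4.003 ± 0.40 higher (16.0-fold), and its EG mean was 28.2 times the floor. Armcx3 differed by 1.17 ± 0.72, with a 95% interval from -0.59 to 2.93. The E11.5 PGC arrays took part in the choice of the genes, so these differences were not tested. EG was measured in series A only.

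The means of EG and Day6 lay closer together. Armcx1 differed by -0.05 ± 0.50 on the log2 scale, with a 95% interval from -1.22 to 1.12. Armcx2 was 0.71 ± 0.40 higher in EG (interval -0.24 to 1.65). Armcx3 differed by 0.03 ± 0.72 (interval -1.73 to 1.79). The Day6 values took part in the choice as well, and these intervals are wide enough to hold changes of more than 1 on the log2 scale.

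Over the first 3 days Armcx1 differed by 1.29 ± 0.50 between Day3 and E11.5 PGC, and both Day3 arrays lay above both E11.5 PGC arrays. Within series A this difference was 0.76 and within series B 1.83. Armcx2 differed by -0.50 ± 0.40, and Armcx3 had no fitted difference because 1 Day3 array had no value.

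**Figure D2:**
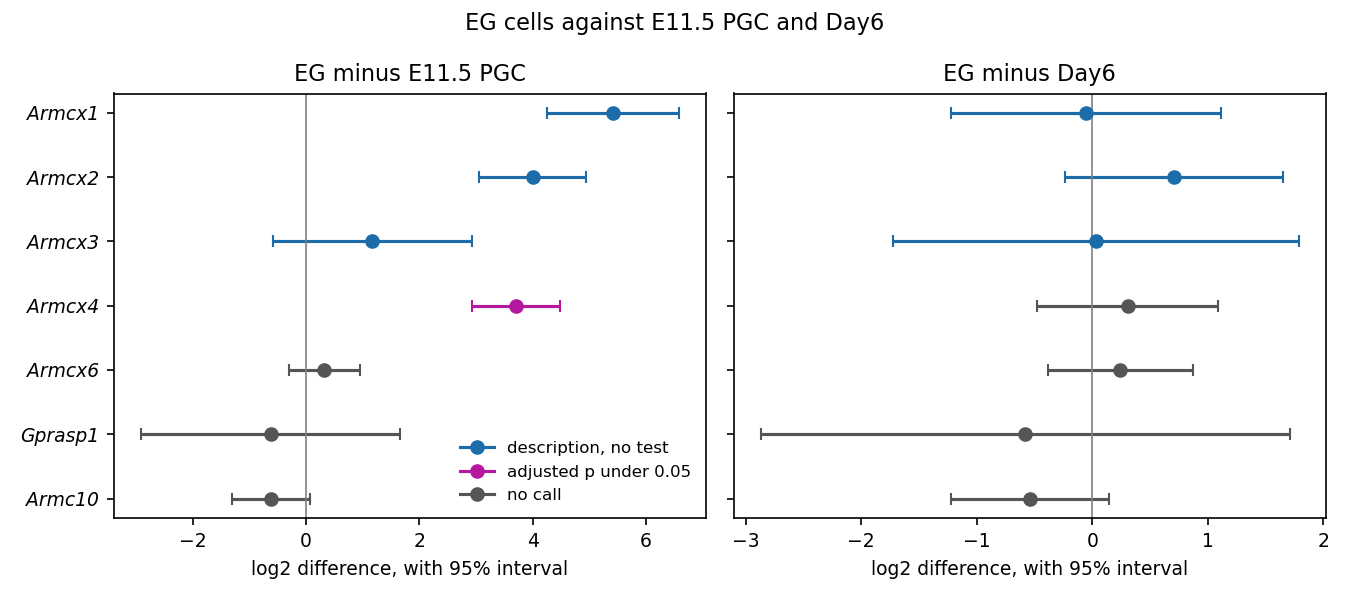
Log2 differences of EG from E11.5 PGC (left) and from Day6 (right) for the 3 Armcx genes and their measured relatives, with 95% intervals from limma. Armcx1 (5.42), Armcx2 (4.003) and Armcx3 (1.17), blue points, are a description with no test; of the relatives, Armcx4 (3.71) is called in the left panel and none in the right panel.

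The rest of the family was described from a list of 7 genes, of which Armcx4, Armcx6, Armc10 and Gprasp1 had a named probe. Armcx4, listed on the array under an older name, showed the same step as Armcx1 and Armcx2. It read 7.08 and 5.87 in E11.5 PGC, 5.30 on the only Day3 array with a value, 54.8 and 84.2 in Day6, and 82.7 and 85.6 in EG. All 4 later arrays lay above the 3 earlier ones. Armcx4 rose by 3.40 ± 0.32 on the log2 scale from E11.5 PGC to Day6 (10.5-fold, limma adjusted p = 0.00386) and was 3.71 ± 0.32 higher in EG (13.0-fold, limma adjusted p = 0.00307). These were the only calls in the list, 1 of 4 genes tested in each comparison, beside 4.34% of all probes called higher in Day6 and 5.57% in EG. Between EG and Day6 none of the 4 was called, beside 0.169% of all probes, and between Day3 and E11.5 PGC none of 3, beside 2.08%. Both calls held under every setting tried, and within series B, without the first Day6 array, the difference between Day6 and E11.5 PGC was 3.84.

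Armcx6 lay between 8.90 and 15.7 on all 8 arrays, and its difference between EG and E11.5 PGC was 0.32 ± 0.27 (limma adjusted p = 0.494). Armc10, the autosomal relative on chromosome 5, lay between 337 and 432 in E11.5 PGC and Day3, at 308 and 406 in Day6, and at 265 and 223 in EG. Its difference between EG and E11.5 PGC was -0.62 ± 0.29 and was not called (limma adjusted p = 0.222). Gprasp1, which sorts G protein-coupled receptors to lysosomes and shares the armadillo-like domain, followed the array series. It lay between 9.90 and 16.7 on the series B arrays and between 2.93 and 4.80 on the series A arrays.

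Markers of other cell types were read on the same arrays, because in bulk samples fewer cells of a type and less RNA per cell cannot be told apart. The summed intensity of 18 fibroblast and mesenchyme markers was 498 and 581 in E11.5 PGC, 1061 and 1021 in Day3, 3564 and 788 in Day6, and 1500 and 884 in EG, with 14 to 17 of the 18 over the floor. The first Day6 array stood apart mostly through S100a4 (1335) and Thy1 (747), against 13.2 and 10.7 on the second. Not all markers peaked there: Dcn and Col3a1 were highest on the second Day3 array (173 and 137), and Twist1, Twist2 and Pdgfrb changed little. Armcx1 was as high on the second Day6 array (162) as on the first (157), and Armcx4 was higher on the second. Armcx2 was 82.6 on the first and 65.1 on the second, and Armcx3 14.0 and 3.04, the same order as the fibroblast sum in Day6. In EG the difference between the fibroblast sums came mostly from S100a4 (808 and 190). Thy1 was 96.6 and 71.0 there, and Sparc went the other way (267 and 358). Armcx2 was 140 and 102 in EG, and Armcx3 was higher on the second array. Neither order can be set against the fibroblast list as a whole. The part of fibroblast RNA in these values was not tested.

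The 12 markers of gonadal somatic cells summed to between 58.9 and 86.5 on every array. The 10 endothelial markers summed to 351 and 397 in E11.5 PGC, 253 and 411 in Day3, 242 and 302 in Day6, and 559 and 608 in EG, with 6 to 8 of them over the floor. The 7 measured blood markers, of a list of 12, summed to between 133 and 185 in E11.5 PGC and Day3, to 374 and 231 in Day6, and to 535 and 610 in EG, with 4 or 5 over the floor. The brightest of them were Laptm5 (205 and 96.0 in Day6, 200.2 and 261 in EG) and Cd68, a lysosomal protein of macrophages (131 and 83.5 in Day6, 283 and 307 in EG). Ptprc, which defines leukocytes, lay between 2.81 and 5.74 throughout. Other blood markers did not rise. Tyrobp went from 43.3 and 34.6 in E11.5 PGC to 11.1 and 11.7 in Day6, and Csf1r lay between 22.6 and 39.4 throughout. From Day3 to Day6 the blood sum rose mostly through Laptm5, since Cd68 was already 129 and 65.5 in Day3. In EG Cd68 added to the rise. The part of blood cell RNA in the Armcx values was not tested. The 10 germ cell markers, such as Ddx4 and Dazl, were over the floor on every array. They summed to 18214 and 10906 in E11.5 PGC against 1641 and 4141 in Day6. Dppa3 was the largest part of the E11.5 PGC sums (10543 and 5303), and Prdm14 changed little. The 10 pluripotency markers summed to between 19617 and 25667 in E11.5 PGC and Day3 and to between 29910 and 49052 in Day6 and EG. Dppa5a was the largest part of these sums (13998 and 11815 in E11.5 PGC, 26506 and 28405 in EG). Nanog, Zfp42, Klf4, Tdgf1 and Fgf4 were higher in Day6 and EG than in E11.5 PGC. Utf1 fell from 4192 and 4537 in E11.5 PGC to 642 and 412 in Day6, and Sall4 and Tfcp2l1 were not higher in EG.

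**Figure D3:**
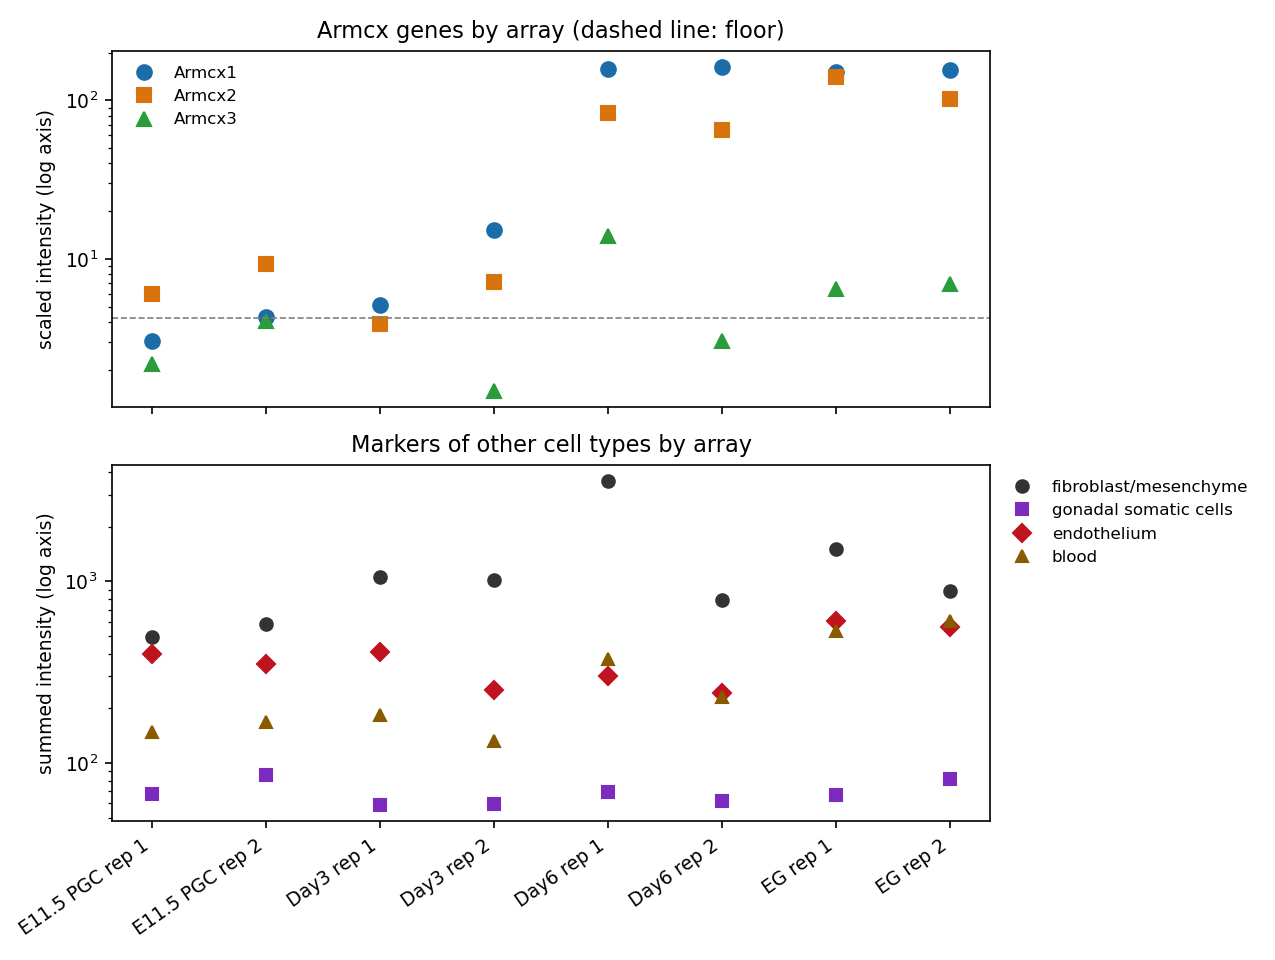
Intensity of Armcx1, Armcx2 and Armcx3 (top) and summed intensity of marker genes of 4 other cell types (bottom) on each array, both on log axes. The fibroblast sum is highest on the first Day6 array (3564), where Armcx3 is also highest (14.0), whereas Armcx1 and Armcx2 are high on all 4 Day6 and EG arrays.

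The 3 genes lie within 91.3 kb on chromosome X (GRCm38.p6, from the RefSeq gene table). Armcx1 spans chrX:134717913-134721917, Armcx3 chrX:134756552-134761457 and Armcx2 chrX:134804142-134809221, with Armcx6 between them and Armcx4 just before the stretch. The table lists 18 protein-coding genes within 500 kb of them, members left out, and 12 had a named probe. In Day6 against E11.5 PGC, 2 of the 11 tested were higher and none lower, beside 4.34% of all probes called higher. These were Armcx4 and Tmem35a, a chaperone of nicotinic acetylcholine receptors, which rose by 1.71 ± 0.28 on the log2 scale (limma adjusted p = 0.0134). In EG against E11.5 PGC Armcx4 was the 1 gene called of 12, beside 5.57% of all probes called higher, and Tmem35a differed by 0.67 (limma adjusted p = 0.177). The median difference of the neighbours was 0.41 in Day6 and 0.28 in EG, beside -0.16 over all probes in both comparisons. With the array series as a block, 4 of the 11 were called in Day6, Btk and Timm8a1 being the others, beside 9.5% of all probes called higher. Btk was near the limit of measurement, at 4.75 and 5.26 in Day6 and under the floor on all other arrays. Without either E11.5 PGC array Tmem35a lost its call.

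**Figure D4:**
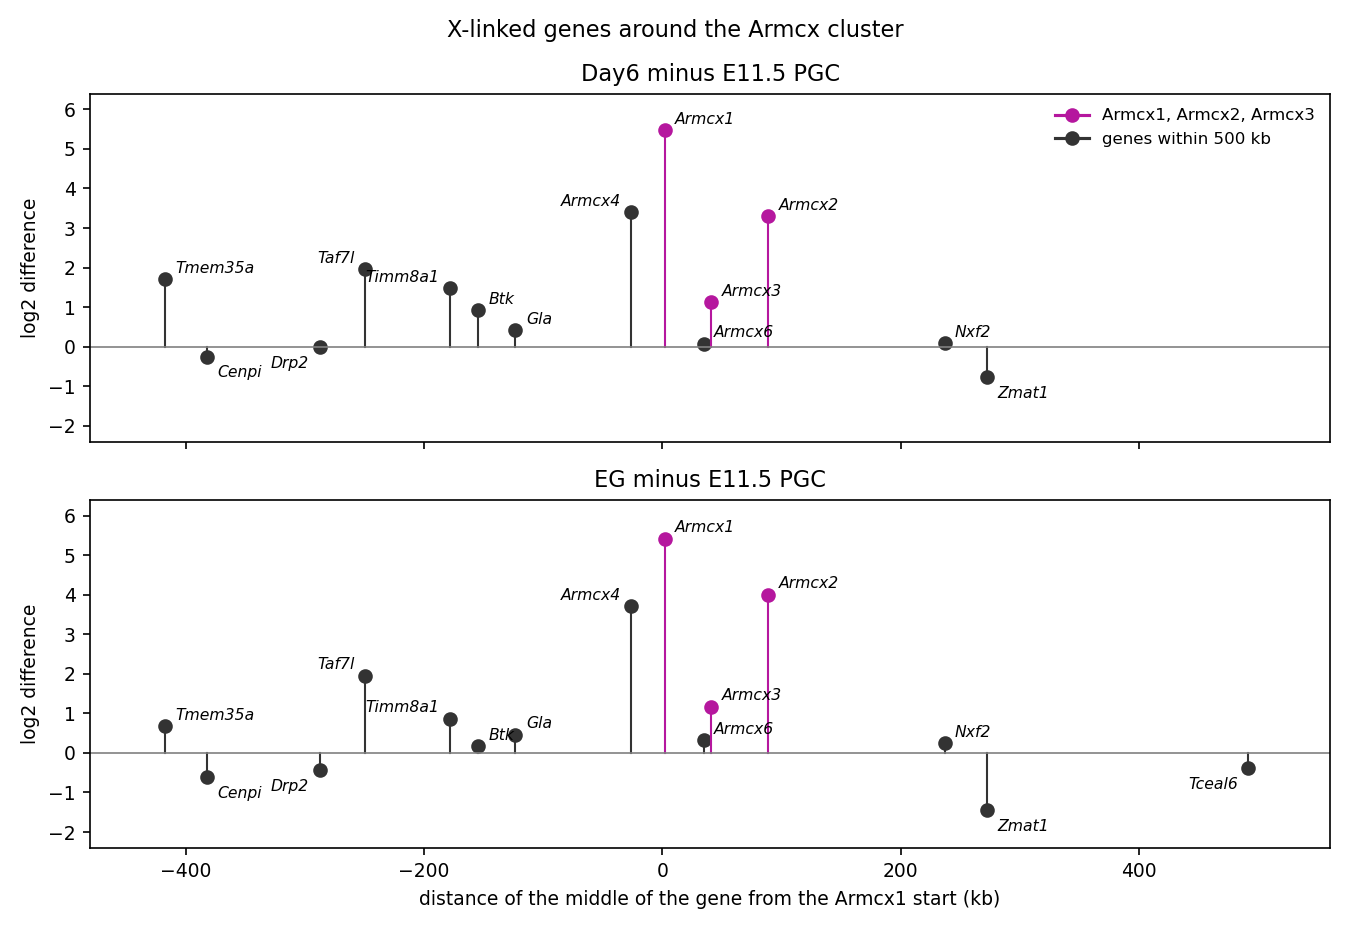
Log2 difference from E11.5 PGC in Day6 (top) and EG (bottom) of genes with a probe around the Armcx cluster, against the distance of the middle of each gene from the start of Armcx1 in kb. Armcx1, Armcx4 and Armcx2 stand above 3 in both panels, and Armcx6 and Armcx3, which lie between Armcx1 and Armcx2, do not.

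The X chromosome as a whole had more genes called higher than lower. These X-linked genes, each read by 1 named probe, include the measured neighbours above and the BEX and TCEAL genes below. The share over all probes also counts probes with no symbol. Of 477 X-linked genes tested in Day6 against E11.5 PGC, 55 were higher and 8 lower, beside 4.34% and 4.28% of all probes (8.61% either way). Of 501 tested in EG against E11.5 PGC, 58 were higher and 13 lower, beside 5.57% and 5.61% (11.2% either way). Their median differences were 0.17 and 0.05, beside -0.16 over all probes. In Day3 against E11.5 PGC 14 of 484 were higher and 4 lower, beside 1.33% and 0.754% of all probes. The called X-linked genes numbered 63 in Day6 and 71 in EG, or 144 and 131 once the array series was a block. That block called 23.8% and 23.6% of all probes. Without 1 array the Day6 count of X-linked genes was 20 and 17 (first and second E11.5 PGC array) and 39 (first Day6 array, and either EG array). Their EG count was 24 and 11 (first and second E11.5 PGC array) and 13 and 9 (first and second EG array). Calls over all probes fell as well, from 1734 to 430 at the lowest in Day6 and from 2321 to 232 in EG.

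BEX and TCEAL genes encode small X-linked proteins, and the 10 of a list of 12 that had a probe lie on the same chromosome. In Day6 against E11.5 PGC 4 of 9 tested rose and none fell, beside 4.34% of all probes called higher. Bex1 rose from a mean intensity of 1327 to 8872, by 2.74 ± 0.46 on the log2 scale (limma adjusted p = 0.0139). Bex2 rose by 1.99 ± 0.32, Bex3, which binds the p75 neurotrophin receptor, by 1.90 ± 0.30, and Bex4 by 1.43 ± 0.32 (limma adjusted p = 0.0121, 0.0115 and 0.0377). In EG against E11.5 PGC 3 of 10 were higher, Bex2 by 2.49 ± 0.32, Bex1 by 2.66 ± 0.46 and Bex3 by 1.57 ± 0.30, beside 5.57% of all probes. None of the TCEAL genes was called. The list median was 1.43 in Day6 and 1.16 in EG, beside -0.16 over all probes. With the array series as a block 7 were called in each comparison, beside 9.5% and 9.24% of all probes called higher. No gene of the list was called in either comparison without the second E11.5 PGC array, none in EG without either EG array, and 2 in Day6 without the first Day6 array or the first E11.5 PGC array.

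**Figure D5:**
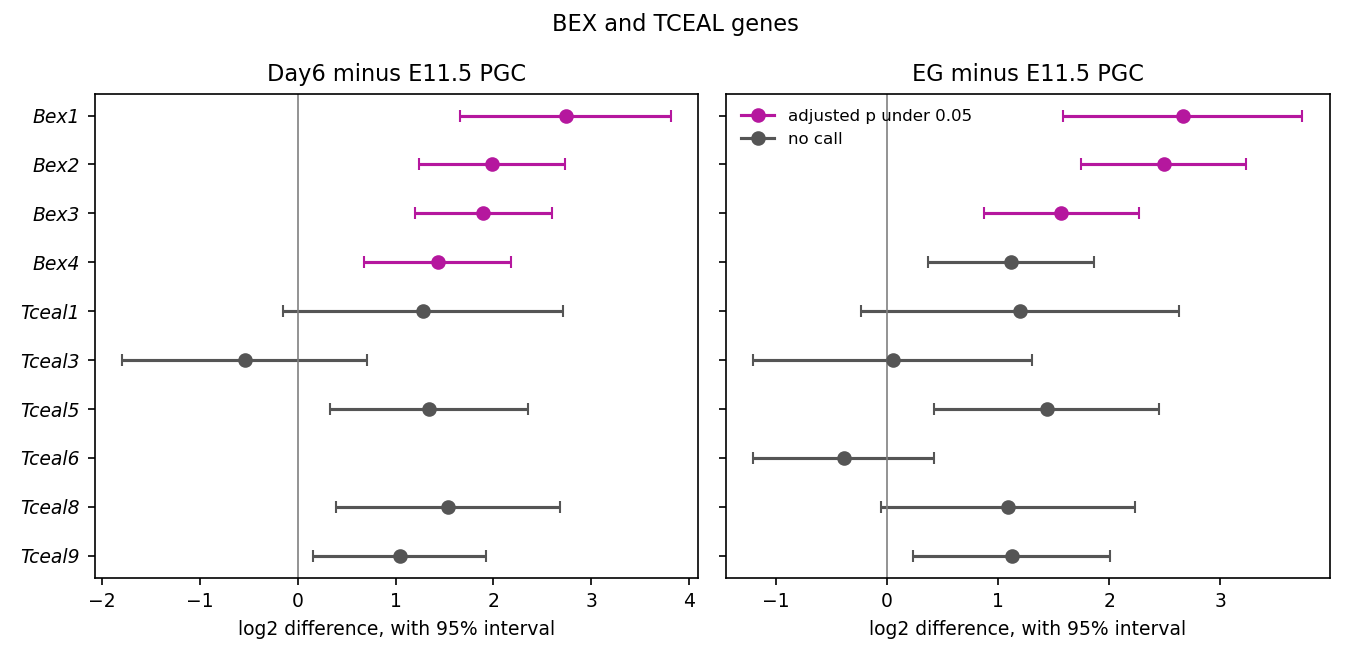
Log2 differences of BEX and TCEAL genes from E11.5 PGC in Day6 (left) and EG (right), with 95% intervals from limma. Bex1 to Bex4 are called in Day6 and Bex1 to Bex3 in EG, coloured points; Tceal6 was not tested in Day6.

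Genes of mitochondrial movement and shape, the processes in which ARMCX proteins are known to act, were counted beside the share called over all probes. Lists this short cannot tell their counts apart from that share. Of 11 measured genes of mitochondrial transport (Miro GTPases, Trak adaptors and kinesins) limma called none in any comparison. Over all probes it called 8.61% in Day6 and 11.2% in EG, both against E11.5 PGC. Trak1, an adaptor between mitochondria and motors, differed by -0.87 ± 0.29 in EG against E11.5 PGC (limma adjusted p = 0.105), the lowest p of the list and its 1 gene with an unadjusted p under 0.05. With the array series as a block 2 of the 11 were called in Day6 and 1 in EG against E11.5 PGC. The same block called 23.8% and 23.6% of all probes. In Day6 Rhot1, which encodes Miro1, was lower by 0.88 and Kif5b, a kinesin heavy chain, higher by 1.38. Rhot1 was the 1 gene called in EG.

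Of 14 genes of mitochondrial fusion and fission, 1 was called in EG against E11.5 PGC, beside 5.61% of all probes called lower. Fis1, a fission protein of the outer membrane, fell from a mean intensity of 703 to 320, by 1.14 ± 0.28 on the log2 scale (limma adjusted p = 0.0433), a call lost without either E11.5 PGC array or either EG array and after quantile normalization. Mfn2, a GTPase of outer membrane fusion, differed by -1.47 ± 0.44 (limma adjusted p = 0.0792) and its partner Mfn1 by -0.10 ± 0.43 (limma adjusted p = 0.917). With the block the difference of Mfn2 was -1.85 and was called (limma adjusted p = 0.00558), and 4 of the 14 were called in each of Day6 and EG against E11.5 PGC, beside 23.8% and 23.6% of all probes.

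Of 12 genes of mitochondrial biogenesis, Polg2, the accessory subunit of the mitochondrial DNA polymerase, fell by 1.93 ± 0.42 from E11.5 PGC to Day6 (limma adjusted p = 0.0343), the 1 gene called, beside 4.28% of all probes called lower. In EG the coactivator Pprc1 was lower by 1.24 ± 0.25 and the mitochondrial transcription factor Tfb2m by 1.37 ± 0.27 (limma adjusted p = 0.0254 and 0.0232), beside 5.61% of all probes called lower. Polg2 lost its call without either E11.5 PGC array, either EG array or the second Day6 array, and Pprc1 and Tfb2m lost theirs without any 1 of the E11.5 PGC or EG arrays. The median difference in EG against E11.5 PGC was -0.54 for transport, -0.30 for fusion and fission and -0.39 for biogenesis, beside -0.16 over all probes. With the block these medians were -0.35, 0.01 and -0.47, beside -0.18, so that of fusion and fission changed sign. With the block 4 biogenesis genes were called in Day6 and 5 in EG, beside 23.8% and 23.6% of all probes.

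Day6 against Day3 gave no call in any of these lists, and none among all 20015 probes tested (0%). At an unadjusted p under 0.05 limma listed 1783 of those probes, and 361 (1.8%) were called with the array series as a block. That block called Bex1 (limma adjusted p = 0.0280), Btk among the neighbours, which lay near or under the floor, and 20 X-linked genes in this comparison.

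The genes whose pattern was most like that of the 3 Armcx genes were ranked by the mean Pearson correlation of log2 intensity with each of them, over 8 arrays (7 for Armcx3), among 3529 genes with a range of at least 2 on the log2 scale. The members themselves correlated at 0.950 (Armcx1 with Armcx2), 0.625 (Armcx1 with Armcx3) and 0.760 (Armcx2 with Armcx3). The 10 highest were Pdcl2 (0.903), Laptm5 (0.902), Gdpd5 (0.896), Gfpt2 (0.893), Tgm1 (0.892), Nlrp4f (0.890), Rlbp1 (0.889), Fzd4 (0.884), 2410137M14Rik (0.879) and Sox18 (0.878). Pdcl2 had an intensity of 3.46 and 4.08 in E11.5 PGC, 2.68 and 5.59 in Day3, 65.7 and 39.8 in Day6, and 75.6 and 86.7 in EG. All arrays come from the same 4 groups, so a gene that steps up after Day3 correlates with any other that does, and 6 of the 10 were also named by the correlation within array series and 1 by Spearman's rho.

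Each gene alone had different nearest patterns. For Armcx1 they were Vegfc, a growth factor of lymphatic vessels (0.991), Igfbp2 (0.989) and Nlrp4f (0.987). For Armcx2 they were Gfpt2 (0.995), Pdcl2 (0.990) and Fundc2, which encodes a mitochondrial outer membrane protein (0.967). For Armcx3 they were Akr1b8, an aldo-keto reductase (0.925), Bgn, a matrix proteoglycan (0.920), and Alox5ap, which serves leukotriene synthesis (0.919). Bgn was 100.4 on the first Day6 array and 6.81 on the second, the same order as Armcx3 and the fibroblast sum.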

How the data were processed

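The authors deposited linear spot intensity from one-colour arrays (amplified aminoallyl RNA labelled with Cy5, per the labels' protocols). Array medians lay between 19.99 and 20.01, and how background was corrected, how arrays were scaled and why cells are missing is not given in the sources used here. Array number limits the precision. There were 23473 probes, 19524 of them measured on all 8 arrays; 16631 carried 1 symbol, and 3947 older symbols were replaced through the RefSeq gene table. Values were converted to log2 without further normalization, and missing cells stayed missing.

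Differences were fitted with limma 3.58.1 in R 4.3.3 on all 8 arrays and 4 groups, with two-sided moderated tests and Benjamini-Hochberg adjustment over all probes tested in a comparison (adjusted p under 0.05), and the code was tested on simulated data. A probe entered a comparison if all 4 arrays of its groups gave a value. For a gene with several probes the brightest was used. Fitted differences of the 3 Armcx genes are given without their p-values, because the choice of genes used these arrays. The array series was not a term of the model. Replicate numbers 1 and 2 match the series in E11.5 PGC, Day3 and Day6, and deviations of same-numbered arrays correlated at 0.620, 0.547 and 0.694, so a model with the series as a block is reported where it changed a call. For EG it assumes the same series difference in every group. The members, gene lists and settings were chosen with earlier results of these data known. Named genes were the members, every measured family gene, at most 4 genes a list with the lowest p, called neighbours and the genes most like the members; other genes were named after their values were seen. Alternatives were the block, quantile normalization, a pseudocount of 2.275, leaving out 5850 dim probes, a trended robust variance, missing cells set to the array minimum, and leaving out each array.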

Additional observations from a re-analysis of the deposited data

How the results depend on the processing

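The steps of Armcx1 and Armcx2 in Day6 and EG against E11.5 PGC, and those of Armcx4, kept their direction under every setting run; 1 value moved by more than the spread between arrays, Armcx1 in Day6 against E11.5 PGC, 4.78 with the pseudocount, which by construction lowers the change of a dim gene. With 2 arrays a group and dim early values, the size of the steps is less certain than their presence, and differences of Armcx3 near the floor could not be resolved.

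In 14 differences 39 values changed sign, none called by limma before or after. Armcx1 in EG against Day6 was 0.30 with the replicate block and 0.0168 after quantile normalization. Armcx3 in Day6 against E11.5 PGC was -0.41 in series B alone, and in EG against Day6 -0.29 with the replicate block, -0.0548 with the pseudocount, -1.07 in series A alone and -1.07 to 1.13 with 1 array left out. Gprasp1 in EG was 0.42 (against Day6) and 0.37 (against E11.5 PGC) with the replicate block, and 0.24 and 0.28 in series A alone. In series A alone its differences were also -0.0778 in Day3 and 0.0474 in Day6 against E11.5 PGC and 0.13 in Day6 against Day3. With 1 array left out they spanned -0.99 to 1.52 (Day3) and -0.96 to 0.86 (Day6) against E11.5 PGC, -1.57 to 0.94 in Day6 against Day3, and -1.40 to 0.24 and -1.54 to 0.28 in EG against Day6 and E11.5 PGC. Armc10 in Day6 against E11.5 PGC was 0.0161 after quantile normalization and 0.0146 in series B alone, and in Day3 -0.0481 in series A alone; with 1 array left out it spanned -0.28 to 0.12 (Day6), -0.15 to 0.21 (Day3) and -0.31 to 0.0875 (Day6 against Day3). Armcx6 in Day6 against E11.5 PGC was -0.14 in series A alone and spanned -0.14 to 0.30 with 1 array left out, and Armcx4 in EG against Day6 spanned -0.0016 to 0.62. Mfn1 in EG against E11.5 PGC was 0.26 with the replicate block, 0.0174 after quantile normalization and 0.0779 in series A alone, and spanned -0.27 to 0.0779.

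Counts of calls moved more. With the array series as a replicate block they were, over all probes, 1725 in Day3 against E11.5 PGC, 361 in Day6 against Day3, 4790 in Day6 against E11.5 PGC, 395 in EG against Day6 and 4905 in EG against E11.5 PGC. In the same order X-linked genes gave 57, 20, 144, 6 and 131. Against E11.5 PGC (Day3, Day6, EG) this block gave 1, 7 and 7 BEX and TCEAL genes, 2, 4 and 4 of fusion and fission and 1, 4 and 5 of biogenesis. It gave 2 and 1 of transport in Day6 and EG, 4 neighbours in Day6, and in Day6 against Day3 1 BEX gene and 1 neighbour. With the replicate block on E11.5 PGC, Day3 and Day6 arrays alone, all probes gave 935, 96 and 3629 and X-linked genes 30, 9 and 113 in the first 3 comparisons. There Day6 against E11.5 PGC gave 7 BEX and TCEAL genes, 2 of transport, 4 of fusion and fission, 2 of biogenesis and 5 neighbours, and Day3 gave 1 each of fusion and fission and of biogenesis.

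With the pseudocount the counts were 672, 62 and 151 probes in Day3 against E11.5 PGC, Day6 against Day3 and EG against Day6, 1 fusion and fission gene in Day6, 4 biogenesis genes in EG, and 2 and 1 X-linked genes in Day6 against Day3 and EG against Day6. Quantile normalization gave 5 BEX, 0 fusion and fission and 1 biogenesis genes in EG. The trended robust variance gave 34 and 98 probes and 1 and 1 X-linked genes in Day6 against Day3 and EG against Day6, and 1 fusion and fission gene in Day6. Without the dimmest probes EG against Day6 had 89 calls and Day6 1 fusion and fission gene. The cause of these moves was not tested.

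Leaving out 1 array, with fewer arrays in the fit, gave 4 to 555 probes in Day3 against E11.5 PGC, 430 to 1652 in Day6, 232 to 2809 in EG, and 0 to 6 in EG against Day6. X-linked genes ranged from 0 to 22, 17 to 60 and 9 to 91 in Day3, Day6 and EG, BEX and TCEAL genes from 0 to 4 in Day6 and 0 to 3 in EG, neighbours from 1 to 2 in Day6, fusion and fission genes from 0 to 1 in EG, and biogenesis genes from 0 to 1 in Day6 and 0 to 2 in EG. Of the 10 genes most like the members, 6 were shared by the correlation within array series and 1 by Spearman's rho.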
